A study of Mus musculus with 26 samples.

Results

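Adult globin transcripts were followed through ribosome footprinting and RNA-Seq of mouse striatum. They were chosen by symbol, as rows named Hba-a1, Hba-a2, Hbb-b1, Hbb-b2 or Beta-s, and they were selected on measured values: their footprint and RNA-Seq means in the genotype comparisons used here were known when they were picked. Their differences between genotypes are therefore given as a description, with no test. Of the 5 symbols, 3 had a row, namely Hba-a2 (uc007ijk.1), Hbb-b1 (uc009iup.1) and Beta-s (uc009iuq.2), among 8576 transcripts in either table of transgenic mice and 9561 transcripts in the table of knockout mice. Hba-a1 and Hbb-b2 had no row.

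Haemoglobin of adult red cells joins alpha globin and beta globin chains, each carrying a haem group that binds oxygen. Red cells lose their nucleus but young ones still hold globin mRNA and ribosomes, so blood that stays in the vessels of a dissected tissue brings globin mRNA and globin footprints into its libraries. In mice the alpha and the beta chain are each encoded by near-identical adult genes that lie side by side, and low levels of globin mRNA have also been described in neurons and glial cells.

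The study asked how LRRK2, a kinase linked to Parkinson disease, affects translation in striatum, sampled as caudate putamen. All mice were C57BL/6 and 3 months old by the labels, and by the methods each sample pooled tissue of 3 mice of mixed sex. GS LRRK2 TG mice (GS) carried G2019S LRRK2 and GS/DA LRRK2 TG mice (GS/DA) carried the kinase-dead G2019S/D1994A LRRK2, both as Tet-off transgenes that a CaMKII-tTA driver switches on in forebrain neurons, with doxycycline given until weaning. Both were set against non-TG control mice, labelled as wild-type. Both comparisons draw their controls from the same labelled non-TG samples, but which of these samples each table used is not stated, and their control means differ (Lrrk2 footprints of 2524 in the GS and 1335 in the GS/DA table). LRRK2 KO mice (KO) were set against WT mice of their own table.

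The deposited values were group means of reads in coding sequences (CDS) after DESeq normalization, made separately for each table. In 10 of the 12 columns used the means could be resolved into the normalized reads of 2 libraries, here called the deeper and the shallower library by their depth, since the columns carry no replicate numbers and do not say which footprinting library belongs to which RNA-Seq library. Both control columns of the GS table could not be resolved, so only their means are given. The labels list 3 footprinting samples for non-TG control, WT and KO mice and 3 RNA-Seq samples for non-TG control mice, but every resolved column was a mean of 2. Resolved reads per library ranged from 2865022 to 19320126 for footprints and from 3126208 to 14438632 for RNA-Seq.

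Lrrk2 itself followed the labels in footprints. In the KO table, Lrrk2 footprints were 400.3 and 690.1 normalized reads in the WT libraries and 102 and 149.7 (deeper, then shallower, here and below) in the KO libraries, and Lrrk2 RNA-Seq was 1278 and 733 in WT against 423 and 270.0 in KO. The GS/DA table gave 1445 and 1224 footprint reads of Lrrk2 in non-TG control and 7267 and 4766 in GS/DA libraries. In the GS libraries Lrrk2 had 3320.5 and 7052 footprint reads, above the control mean of 2524. RNA-Seq of Lrrk2 in the transgenic tables did not separate the groups, at 5233 and 560.2 in non-TG control, 404 and 5038 in GS/DA, and 3549.6 and 214 in GS libraries.

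Blood was checked through other transcripts of its cells. Alas2, the haem-synthesis enzyme particular to red cell precursors, and Slc4a1, the anion exchanger of the red cell membrane, had no row in any table, so the rows named here were identified as adult globins by symbol alone. Of a list of 25 red cell gene symbols, some of them aliases of the same gene, 5 had rows, Epb4.9, Spnb1, Ank1, Bpgm and Tfrc, all of which other cells express too. Their median footprint change was 0.09 in the GS, -0.10 in the GS/DA and -0.03 in the KO comparison, beside 0.00, -0.01 and 0.02 over all transcripts, and their median RNA-Seq change 0.04, 0.03 and 0.13, beside -0.02, 0.06 and 0.01. The most abundant of them, Epb4.9, which codes for the actin-bundling protein dematin, had 1200.0 and 1179 footprint reads in WT and 1235 and 1213 in KO libraries. Leukocyte markers were represented by Coro1a alone (1 of 12), an actin regulator that had 883 and 745 footprint reads in WT and 654 and 892 in KO libraries, without Ptprc, which had no row. Platelet markers had 0 of 6 rows and plasma proteins of liver 0 of 3. The tables keep transcripts above a read minimum, so a missing row does not show that a transcript was absent.

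Hba-a2, an alpha globin gene, was the most abundant globin row per CDS length. At 38656 normalized RNA-Seq reads per kb in the non-TG control mean of the GS table it ranked 17 among 8330 transcripts with a known CDS length, and at 43946 in the control mean of the GS/DA table it again ranked 17. In WT mice it had 10299 reads per kb and ranked 36 among 9273. Globin mRNA was thus among the most abundant messages of the striatal samples in every table. In footprints the rank of Hba-a2 was lower, 89 and 69 in the non-TG control means and 140 in WT. Hbb-b1 ranked 240 and Beta-s 167 by RNA-Seq in the control mean of the GS table, and 165 and 158 by footprints. The annotation gives Beta-s no CDS, so its length was taken to be the 444 bases of Hbb-b1, here and in the ratios per CDS length below.

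The globin rows together took 0.130% of all footprint reads and 0.200% of RNA-Seq reads in the non-TG control mean of the GS table, and 0.147% and 0.206% in that of the GS/DA table. The shares were 0.123% and 0.235% in GS, 0.118% and 0.171% in GS/DA, 0.0785% and 0.126% in WT, and 0.0493% and 0.108% in KO mice. By footprints the order was thus non-TG control, GS, GS/DA, WT and KO, and by RNA-Seq the GS mean came first. Shares within a library do not depend on the separate normalization of the tables. All these shares sum both beta rows, and would be too high if reads that match both were counted in each row. Among single libraries of the KO table, the footprint share was 0.134% (95% exact binomial interval 0.131% to 0.137%) and 0.0338% (0.0318% to 0.0359%) in WT, and 0.0657% (0.0637% to 0.0678%) and 0.0386% (0.0363% to 0.0409%) in KO. These intervals cover counting error only, and the library totals hold the resolved transcripts, 93.7% and 94.0% of the summed means. The gap between the WT libraries was wider than that between the group means, so the neighbours WT and KO did not differ beyond their spread. In the GS/DA table the footprint shares of the resolved reads were 0.226% and 0.169% in control and 0.185% and 0.132% in transgenic libraries, and the RNA-Seq shares 0.181% and 0.296% in control and 0.290% and 0.105% in transgenic libraries, so these groups overlapped too. The resolved transcripts of this table hold only 74.6% of the summed footprint means and 85.9% and 86.2% of the RNA-Seq means, so its library shares run higher than shares of all reads would and compare only within the table and assay. The GS libraries had 0.158% and 0.0988% by footprints and 0.0912% and 0.403% by RNA-Seq. Control and GS, GS and GS/DA, and GS/DA and WT, the other neighbours in the order, were not set against their spread, because the GS table has no control libraries and library shares of different tables rest on different totals.

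The globin copies share almost their whole coding sequence. In the NCBIM37 assembly, which is the mm9 build the reads were mapped to, Hba-a1 lies at chr11:32183511-32184465 and Hba-a2 at chr11:32196489-32197301, both on the plus strand with 12023 bases between them, and Hbb-b2 at chr7:110961038-110962510 and Hbb-b1 at chr7:110975048-110976610, both on the minus strand with 12537 bases between them. Each has 3 coding exons. The CDS of Hba-a2 and that of Hba-a1, of 429 bases, differ by T381C alone, and those of Hbb-b1 and Hbb-b2, of 444 bases, differ by C417T alone, with positions counted from 1 at the A of the start codon. Neither difference alters the encoded protein. These stretches of 28 bases, about the length of a footprint, are shown because they hold the only base, in capitals, by which a read in the CDS could tell the copies apart.
Hba-a2: catgcctctctggaTaaattccttgcct
Hba-a1: catgcctctctggaCaaattccttgcct
Hbb-b1: gtggctggagtggcCgctgccctggctc
Hbb-b2: gtggctggagtggcTgctgccctggctc

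Of the 402 stretches of 28 bases in the Hba-a2 CDS, 374 (93.0%) were identical in Hba-a1, and of the 417 in the Hbb-b1 CDS, 389 (93.3%) were identical in Hbb-b2. With the single mismatch that the mapping allowed, 100% of them matched the other copy. No stretch of the alpha CDS occurred in the beta CDS. The starts of the coding sequences, shown because they differ between the chains but not between the copies of a chain, read as follows over bases 1 to 28.
Hba-a2: atggtgctctctggggaagacaaaagca
Hbb-b1: atggtgcacctgactgatgctgagaagg
How reads that match more than 1 place were assigned is not given in the sources used here. Beta-s is not a symbol of the annotation used here, so which beta locus the Beta-s and Hbb-b1 rows counted was not assigned, and no row is read here as the output of a single locus.

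The beta globin rows kept nearly fixed proportions in footprints. Both rows may count some of the same reads, so a steady ratio does not show that separate messages keep step. Hbb-b1 over Beta-s lay between 0.962 and 1 in the 10 footprinting libraries, with a median of 0.974. In RNA-Seq the same ratio lay between 0.741 and 0.908, with a median of 0.783, so the ranges of the assays did not overlap. Alpha over beta, per CDS length, set Hba-a2, the only alpha row, over the sum of both beta rows. It lay between 0.612 and 1.07 in footprints and between 1.23 and 3.99 in RNA-Seq. Alpha footprints thus did not exceed the summed beta footprints per length except in the deeper GS library, at 1.07. RNA-Seq reads favoured alpha in all 10 libraries. The footprint ratio depends on summing the beta rows. In the control mean of the GS table Hba-a2 had 15477 footprint reads per kb, above Hbb-b1 at 9709 and Beta-s at 9997 taken singly. The widest alpha excess, 3.99, was in the shallower GS/DA library, and 3.06 and 2.94 were found in the deeper non-TG control and deeper GS libraries.

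**Figure D1:**
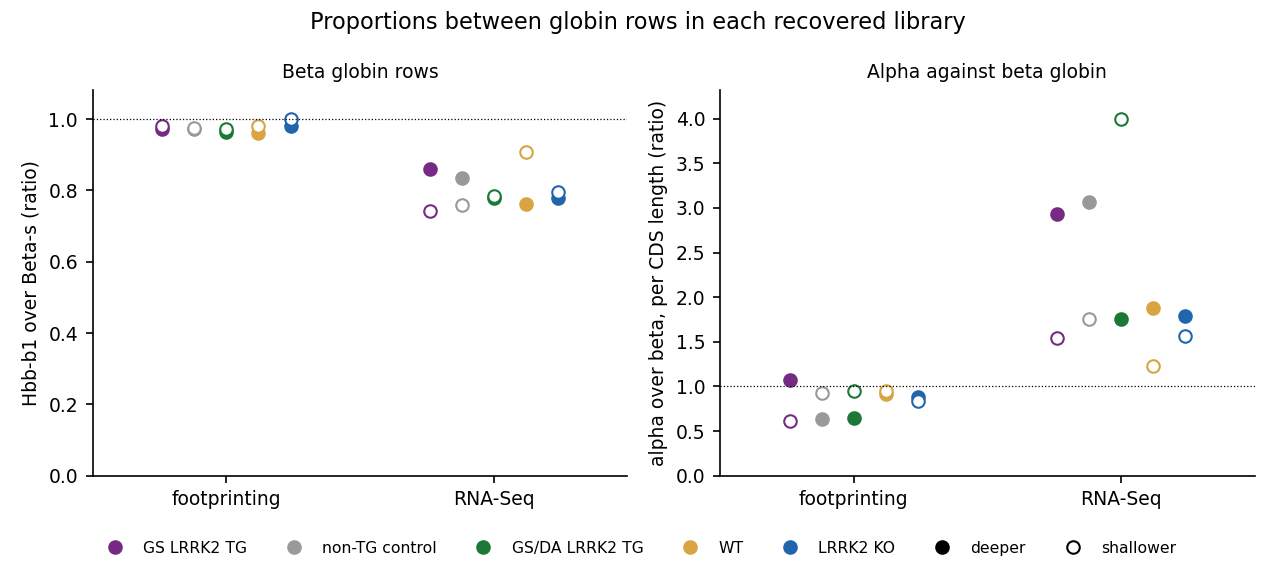
Ratios between globin rows in each recovered library, by assay: Hbb-b1 over Beta-s on the left and alpha over beta globin per CDS length on the right, with filled points for deeper and open points for shallower libraries and a dotted line at a ratio of 1. Alpha is Hba-a2 alone and beta the sum of Hbb-b1 and Beta-s. Hbb-b1 over Beta-s sits between 0.962 and 1 in footprints and between 0.741 and 0.908 in RNA-Seq, and alpha over beta is above 1 in all RNA-Seq libraries.

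Translation efficiency (TE), the log2 ratio of footprint to RNA-Seq means, set the alpha row apart from the beta rows. Hba-a2 had a TE of -1.32 in non-TG control mice of the GS table, above only 9.68% of transcripts, and of -1.02 (11.1%) in the GS/DA table and -1.48 (14.0%) in WT mice. Hbb-b1 had 0.19, 0.65 and -0.73 in the same groups, above 69.5%, 79.2% and 44.6% of transcripts. Beta-s lay between them at -0.14, 0.33 and -0.90. The median over all transcripts was -0.17, 0.04 and -0.64, so alpha globin was in the lower part of the range in each control group and the beta rows near or above its middle, except Beta-s and Hbb-b1 in WT, which were below the median. Since the copies were not told apart, these are values of rows and not of loci.

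The predicted 5′UTR folding energy, listed by the authors from a genome database, was -6.6 kcal/mol for Hba-a2, -16.1 for Hbb-b1 and -12.6 for Beta-s. Energies nearer to 0 mean less structure, and 96.2%, 90.4% and 92.2% of transcripts in the transgenic tables had lower values. The globin messages thus shared 5′UTRs with little predicted structure, although their TE differed.

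In the comparison of KO with WT mice, which asks what loss of Lrrk2 does, Hba-a2 footprints were 2517 and 654 normalized reads in WT and 1252 and 689.6 in KO libraries. Hbb-b1 had 1401 and 352 in WT and 724 and 424 in KO, and Beta-s had 1457 and 358 in WT and 739 and 424 in KO. For each row both KO libraries lay between the WT libraries, so the groups overlapped. The log2 changes of the group means were -0.71 for Hba-a2, -0.61 for Hbb-b1 and -0.64 for Beta-s, below all but 0.241%, 0.502% and 0.418% of transcripts. That position rested on the deeper WT library. The globin sum was 5375 and 1364 in WT and 2715.5 and 1537 in KO, and its log2 change of -0.66 became 0.64 without the deeper WT library. In bulk tissue, fewer cells of a type and less RNA per cell cannot be told apart.

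The WT footprinting libraries differed more for the globins than for nearly all other transcripts. Centred on the median transcript, the deeper over the shallower WT library was 1.96 on the log2 scale for Hba-a2, 2.01 for Hbb-b1 and 2.04 for Beta-s, farther from 0 than 98.3%, 98.5% and 98.7% of transcripts. The KO footprinting libraries differed by 0.87, 0.79 and 0.82, farther than 81.5%, 79.4% and 80.2%. Alpha and beta rows were thus high in the same library in both genotypes, with a smaller gap in KO. The 5 listed red cell genes summed to 1999.8 and 2021 in WT and 2008 and 2031 in KO footprints, with no such gap. Slc2a1, the glucose transporter of brain endothelium and the most abundant of 2 listed endothelial markers of 16, had 200.1 and 73.3 footprint reads in WT and 186 and 61.5 in KO libraries, and the endothelial list (median footprint change -0.04), without Cldn5 and Pecam1, which had no row, summed to 276 and 136 in WT and 266 and 124 in KO. Its part in the globin values was not tested.

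RNA-Seq of the globins showed smaller differences in the KO table. Hba-a2 had 3896 and 4940.0 reads in WT and 3832 and 4139 in KO, a log2 change of -0.15. Hbb-b1 had 926 and 1976 in WT and 971 and 1215 in KO, a change of -0.41, and Beta-s had 1217 and 2177 in WT and 1245 and 1529 in KO, a change of -0.29. The groups overlapped for each row, with the shallower WT library highest each time. The endothelial list summed to 144 and 288 in WT and 165 and 289 in KO RNA-Seq, and Coro1a had 525 and 1163.6 in WT and 580.1 and 748 in KO, both higher in the shallower library as the globin sums of 6039 and 9093 in WT and 6047 and 6883 in KO were. The striatal neuron markers, at 37040.5 and 52267 in WT and 38987 and 54689 in KO, went the same way. So did the mural list, at 389 and 467 in WT and 360 and 410 in KO. Cygb, a globin described below, was also higher in the shallower library, at 363 and 492 in WT and 329 and 572 in KO. The red cell genes, at 5502 and 4380.4 in WT and 5319.8 and 5919 in KO, and the choroid plexus list, at 1675 and 1522.5 in WT and 1132 and 1575 in KO, went the other way in WT. The part of these cell types in the globin values was not tested. The sum had a log2 change of -0.23, and of 0.10 without the shallower WT library. The TE change of the sum was -0.44, and 0.87 without the deeper WT footprinting library.

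Counted over all transcripts, 1203 of 9528 (12.6%) had footprinting libraries of WT and KO that did not overlap and 1341 of 9531 (14.1%) had such RNA-Seq libraries, against 0 of 3 globin rows in either assay. A log2 change of at least 1 of the group means, in either direction, was reached by 13 of 9561 transcripts (0.136%) in footprints, 16 (0.167%) in RNA-Seq and 20 (0.209%) in TE, and by 0 of 3 globin rows. The globins lay far down the ranking of footprint changes without reaching that limit.

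**Figure D2:**
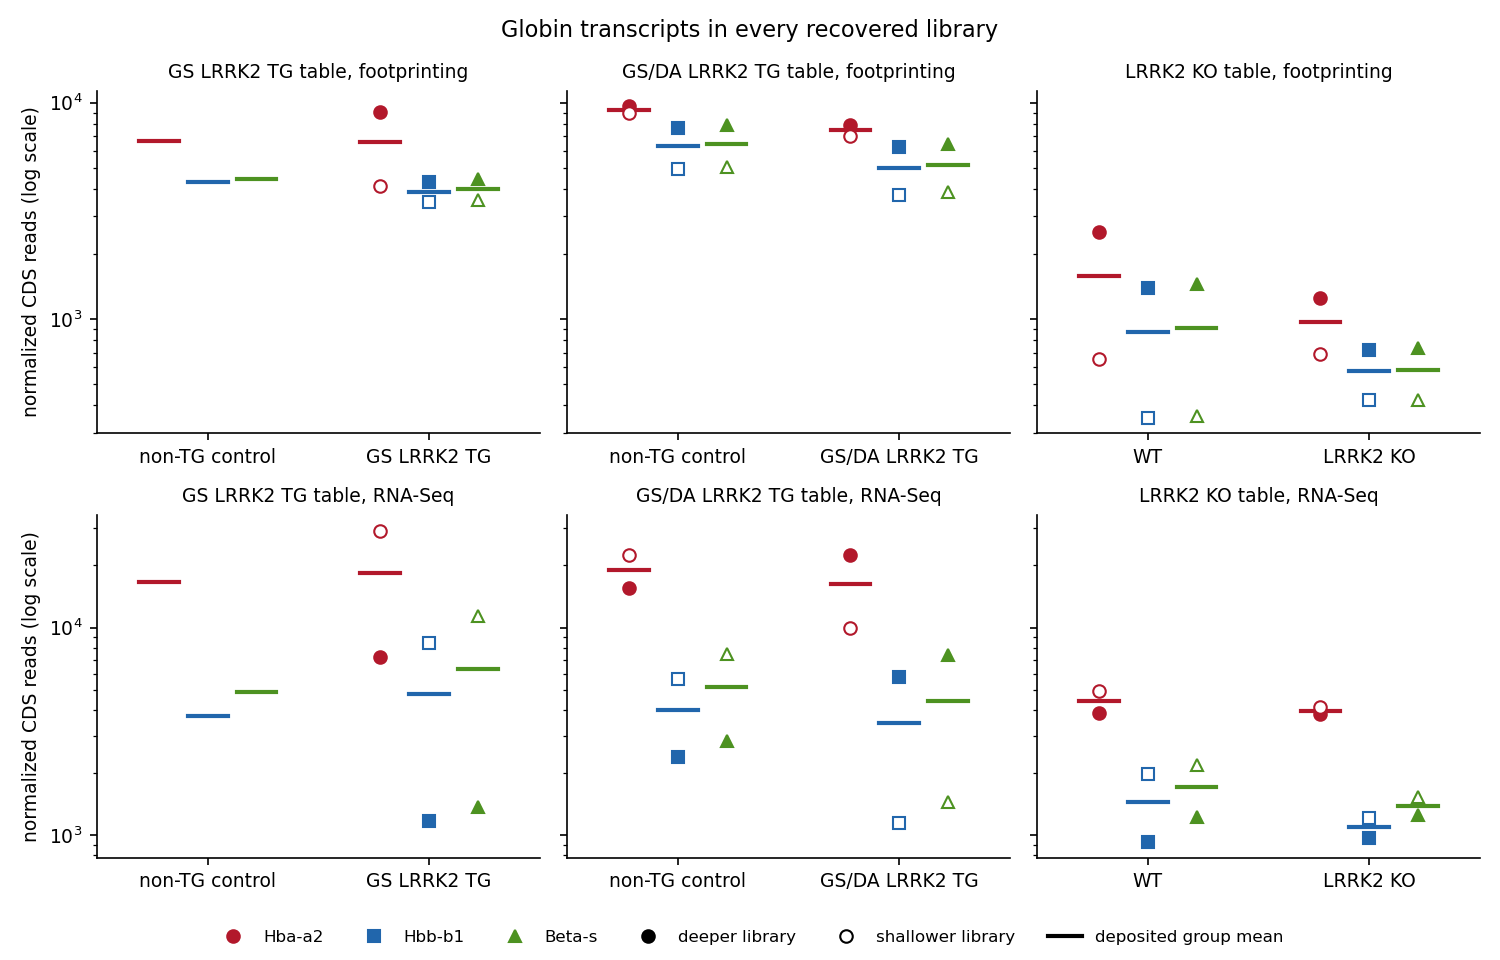
Normalized CDS reads (log scale) of Hba-a2, Hbb-b1 and Beta-s in each table, footprinting above and RNA-Seq below, with filled points for deeper libraries, open points for shallower libraries and bars for the deposited group means. The tables were normalized separately, so heights compare only within a panel; in the KO table both knockout footprinting libraries of Hba-a2, at 1252 and 689.6, sit between the WT libraries at 2517 and 654.

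In the GS/DA table, which sets the kinase-dead transgene against non-TG control mice, Hba-a2 had 9639 and 8909.7 footprint reads in control and 7912 and 7029 in GS/DA libraries. Hbb-b1 had 7672 and 4919 in control and 6229 and 3760.4 in transgenic libraries. Beta-s had 7888 and 5045 in control and 6471 and 3866 in transgenic libraries. The groups were apart for Hba-a2 and overlapped for both beta rows, so 1 of 3 globin rows did not overlap, where 2043 of 8421 transcripts (24.3%) did not. Each row was lower in the deeper GS/DA than in the deeper control library, and likewise between the shallower libraries. A match by depth is not a stated pairing, and this order was not tested. The log2 changes were -0.31, -0.33 and -0.32, below all but 1.60%, 1.28% and 1.41% of transcripts. The globin sum had a log2 change of -0.32, and leaving out single libraries gave -0.59 to -0.10. The size of this difference therefore depended on single libraries while its sign did not.

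The beta rows, but not the alpha row, separated the footprinting libraries within a group. The deeper control library exceeded the shallower by 0.64 on the centred log2 scale for both Hbb-b1 and Beta-s, farther from 0 than 98.0% of transcripts, and by 0.11 (36.3%) for Hba-a2. The GS/DA libraries differed by 0.73 and 0.74 for the beta rows and 0.17 for Hba-a2. In GS libraries the order was the opposite, with 1.13 for Hba-a2, farther than 99.1% of transcripts, and 0.32 and 0.33 for the beta rows. Alpha and beta globin footprints were thus not bound to a fixed ratio from library to library.

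RNA-Seq of the GS/DA table spread more widely. Hba-a2 had 15468 and 22238 reads in control and 22281 and 9988 in transgenic libraries, Hbb-b1 2379 and 5661 in control and 5766 and 1138 in transgenic libraries, and Beta-s 2851 and 7470.1 in control and 7392 and 1449.6 in transgenic libraries. Both groups overlapped for each row, 0 of 3 apart against 287 of 8481 transcripts (3.38%). The log2 changes of the means were -0.22 for each row, and the change of the sum, also -0.22, became 0.21 without the shallower control library and 0.34 without the shallower transgenic library. It was -1.16 without the deeper transgenic library. The TE change of the sum was -0.10, and 0.13 without the deeper control footprinting library, 0.13 without the shallower transgenic footprinting library, 0.24 without the deeper control RNA-Seq library and 0.83 without the deeper transgenic RNA-Seq library. The direction of both values depended on which library was kept.

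In the GS table, which sets the kinase-active transgene against non-TG control mice, Hba-a2 had a control footprint mean of 6639.9 and 9040.1 and 4143 reads in the transgenic libraries. Hbb-b1 had a control mean of 4311 and 4307 and 3465 in transgenic libraries, and Beta-s had 4439 and then 4424 and 3537. For Hba-a2 the control mean lay between the transgenic libraries, and for the beta rows it was just above the deeper library. The log2 changes were -0.01, -0.15 and -0.16, near the median of all transcripts, 0.00, for Hba-a2, above 11.1% of transcripts for Hbb-b1 and above slightly fewer for Beta-s. The change of the sum, -0.09, became 0.21 without the shallower GS library.

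By RNA-Seq, Hba-a2 had a control mean of 16583.5 and 7187 and 29313 reads in GS libraries, Hbb-b1 a control mean of 3767 and 1170.4 and 8386 reads, and Beta-s a control mean of 4903 and 1363 and 11318 reads. The control mean lay between the transgenic libraries each time, and the shallower library held the high value. The log2 changes were 0.14, 0.34 and 0.37, above 85.6%, 98.6% and 99.0% of transcripts. The sum had a log2 change of 0.22, and of -1.38 without the shallower library. The TE changes were -0.15, -0.49 and -0.53, the beta rows above only 0.268% and 0.198% of transcripts, and the TE change of the sum, -0.31, became 1.29 without the shallower RNA-Seq library. The direction of the TE change of the sum thus depended on a single RNA-Seq library.

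A log2 change of at least 1 was reached by 0 of 3 globin rows in either transgenic table. Over all 8576 transcripts, it was reached in the GS table by 4 (0.0466%) in footprints, 6 (0.07%) in RNA-Seq and 11 (0.128%) in TE, and in the GS/DA table by 12 (0.14%), 7 (0.0816%) and 4 (0.0466%). The transgenic comparisons draw on the same labelled non-TG samples, so their values are set side by side and not correlated.

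Base composition moved with the RNA-Seq differences between libraries of the transgenic tables. The CDS of Hba-a2 holds 58.0% G or C and that of Hbb-b1 56.1%, more than 80.6% and 69.4% of transcripts. Across transcripts, which are not independent replicates, the log2 ratio of the deeper to the shallower RNA-Seq library correlated with the GC content of the CDS at r = -0.76 in GS, -0.76 in non-TG control and 0.78 in GS/DA mice (8519, 8524 and 8502 transcripts). In each of these groups the library richer in GC-rich transcripts was the one with more globin reads. For Hba-a2 the centred log2 ratios were -2.03, -0.51 and 1.15, where transcripts within 2 percentage points of its GC content had medians of -1.27, -1.09 and 1.23. For Hbb-b1 they were -2.84, -1.24 and 2.33 beside medians of -0.85, -0.73 and 0.85. The globins thus moved in the direction of transcripts of like composition, Hbb-b1 farther than their median in all 3 groups and Hba-a2 in GS only, and the part of base composition in the globin values was not tested.

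Markers of several cell types ran with the globins in these RNA-Seq libraries. The endothelial list summed to 253 and 1376 RNA-Seq reads in GS, 236 and 1026 in non-TG control and 1127 and 270.2 in GS/DA libraries, high where the globin sums of 9721 and 49017, 20699 and 35369, and 35439 and 12576 were high. Coro1a had 645 and 1680.3, 714 and 1598, and 1829 and 799 reads in the same order. The red cell genes summed to 11420.1 and 15148, 12902 and 14940.2, and 15008 and 12129.5. The mural list summed to 359 and 1053, 408 and 646, and 826 and 298, and Cygb had 332 and 1042, 366 and 1177, and 1236 and 316. The resolved striatal neuron markers, summed to 47436 and 76689, 49819.5 and 59882, and 77826 and 49878, went the same way, so this was not particular to vessel or blood cells. The choroid plexus list, at 4657 and 2032 in GS and 3262 and 12564 in GS/DA, ran against the globins there, and with them in non-TG control, at 5053 and 18893. The CDS of Slc2a1, the most abundant endothelial marker, holds 56.9% G or C and that of Coro1a 58.4%, close to the globins, so cell content and base composition cannot be told apart here.

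In footprints and in the KO table this relation was weaker. In footprints of the GS/DA table r was -0.40 in control and -0.45 in GS/DA libraries, and Hbb-b1, at 0.64 and 0.73, went against transcripts of like GC content, whose medians were -0.08 and -0.09. In WT footprints r was 0.47, and transcripts within 2 points of Hba-a2 had a median of 0.26 where Hba-a2 had 1.96. In WT RNA-Seq r was -0.06, and Hbb-b1 had -1.10 where transcripts of like GC content had -0.02. These gaps of Hba-a2 and Hbb-b1 in WT were larger than the median gap of transcripts of the same GC content.

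**Figure D3:**
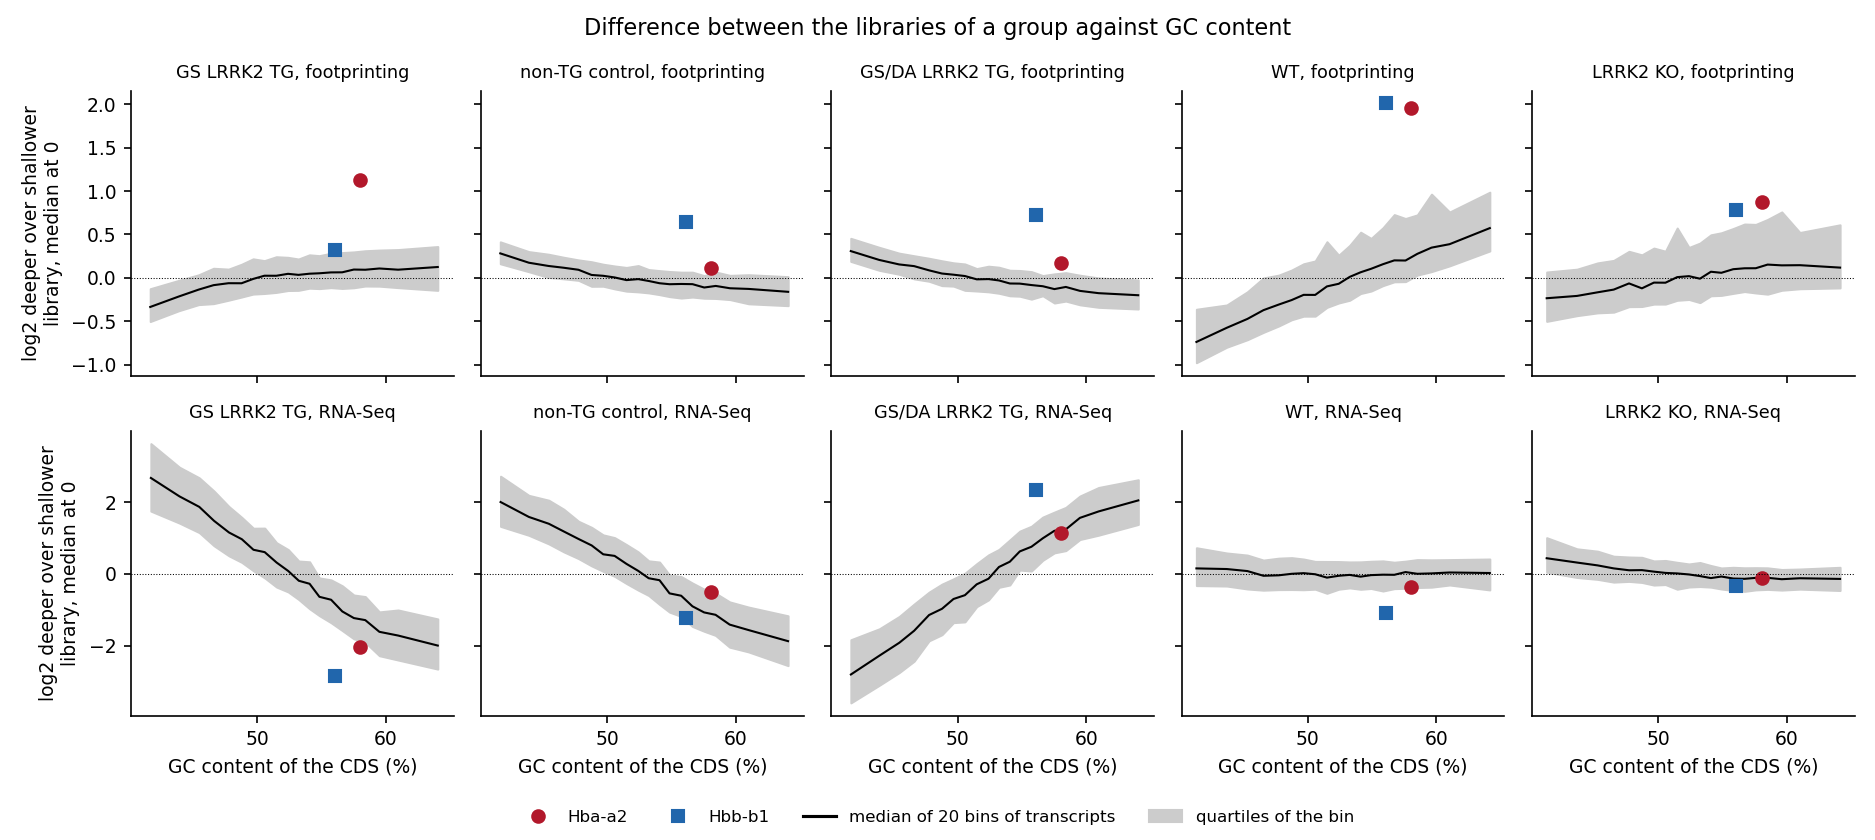
Log2 ratio of the deeper to the shallower library of each group, centred on the median transcript, against GC content of the CDS in percent, footprinting above and RNA-Seq below. Lines are medians and bands the quartiles of 20 bins of transcripts, and Beta-s is not drawn because the annotation gives it no CDS; in WT footprints Hba-a2 at 1.96 and Hbb-b1 at 2.01 stand far above the band.

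Across the 20 recovered libraries, log2 values centred within each table and assay gave r = 0.997 between Hbb-b1 and Beta-s, 0.92 between Beta-s and Hba-a2 and 0.91 between Hba-a2 and Hbb-b1. These points share animals, read depth and the base composition described above, and r is given as a description. The beta rows may also count some of the same reads, so their r does not show that separate messages vary together. Of 8325 transcripts with values in every library, those closest to the mean of the globin rows were Dci, an enzyme of mitochondrial fatty acid oxidation, at 0.93, Mt2, a metallothionein, at 0.92, Ppt2, a lysosomal thioesterase, at 0.92, Gpr26, an orphan receptor, at 0.92, and Gm1673 at 0.91. The median of all transcripts was 0.04. The r of the alpha row with each beta row was of like size. These values do not compare directly, since the transcripts were picked for their r with the globin mean. Among the named list genes, r with the globin mean was 0.89 for Cspg4, 0.85 for Slc2a1, 0.75 for Cygb and 0.73 for Vtn. It was 0.70 for Coro1a and 0.63 for Epb4.9, and below 0 for Enpp2 (-0.09), Ttr (-0.14) and Hmox2 (-0.53).

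By their log2 changes in footprints and RNA-Seq of the 3 comparisons, transcripts near to the median of the globin rows included Osgep, which takes part in tRNA modification, at a root mean square distance of 0.15, Tmem93 at 0.16, Pard6b, a cell polarity protein, at 0.17, and Ccdc53 at 0.18, among 8535 transcripts in all tables. Of the globin rows, Hba-a2 lay at 0.12, Hbb-b1 at 0.05 and Beta-s at 0.01. Osgep came almost as close to the globin median as Hba-a2 did. Their distances are not alike, since the globin rows set that median and Osgep was picked for its distance.

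Genes that make or break down haem had median changes close to those of all transcripts. Of 17 such genes 14 had rows in the transgenic tables and 15 in the KO table, and none reached a log2 change of 1 in footprints or RNA-Seq. The median footprint change of the list was 0.01 in the GS, -0.01 in the GS/DA and -0.01 in the KO comparison, beside 0.00, -0.01 and 0.02 over all transcripts. Single genes of the list differed from its median, and the lowest value in GS footprints, -0.84, was below that of any globin row there. Their median RNA-Seq change was 0.04, 0.04 and -0.05, beside -0.02, 0.06 and 0.01. Hmox2, the constitutive haem oxygenase and the most abundant of them, had 564 and 594 footprint reads in WT and 597 and 523 in KO libraries. Cygb, a globin of many non-blood cells and the only row among 9 other globin symbols, had 307 and 278 footprint reads in WT and 312 and 283 in KO. The globin gap between WT footprinting libraries thus had no counterpart in Hmox2 or Cygb, but it was not particular to the globins: Vtn, a marker described below, had 97.3 and 21.3 footprint reads in WT and 93.1 and 16.8 in KO.

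Other cell types of the dissection were followed by marker lists. Ttr, the thyroxine carrier made by choroid plexus, had 1193 and 17056 footprint reads in the non-TG control libraries and 5162 and 1137 in the GS/DA libraries, a log2 change of -1.53 with overlapping groups. In the GS table its control footprint mean was 3944 beside 408 and 1037 reads in transgenic libraries (-2.45), and its control RNA-Seq mean 4451 beside 1982 and 421 (-1.89). In the KO table Ttr had 282 and 143 RNA-Seq reads in WT and 34.8 and 173 in KO libraries (-1.03), with overlapping groups, and 81.0 and 87.9 footprint reads in WT and 165 and 18.2 in KO (0.12). The choroid plexus list, 3 of 8 symbols with rows and Folr1 and Kl among those without, summed to 5320 and 26078 in control and 10984 and 5495 in GS/DA footprints. The control library high in Ttr was the shallower one, in which the globin sum was the lower of the pair at 18874 against 25199, so high choroid plexus and high globin footprints fell in different control libraries. In GS footprints too the list, at 3903 and 5000.1, was the higher in the library with fewer globin reads, 17771 and 11145, while the striatal (116593 and 80456), mural (711 and 530.0) and endothelial (806 and 672) lists were higher in the library with more. The red cell genes, at 5531 and 5229 in GS footprints, were also higher in the library with more globin reads, and Coro1a, at 1280 and 1343, was not. In the GS/DA table the endothelial footprints (738 and 943 in control, 870 and 933 in GS/DA) were higher in the library with fewer globin reads. So were the resolved striatal footprints, over 8 rows in control (87501 and 105072) and 7 in GS/DA (59256 and 79748). The red cell genes (6260 and 7380, 5959 and 6573) and Coro1a (1698 and 2004, 2082 and 2183) went the same way in both groups. The mural list (665 and 630.1, 569 and 707) did so in GS/DA only. In GS/DA footprints the choroid plexus list and the globins were both higher in the deeper library, as they were in the KO table, where the choroid plexus list summed to 1160.3 and 710.1 in WT and 1402 and 485 in KO. The part of these lists in the globin values was not tested. In the KO table the most abundant marker of that list was Enpp2, an enzyme that makes lysophosphatidic acid, with 1005 and 568 footprint reads in WT and 1178 and 413 in KO libraries.

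Mural cells had 3 of 9 markers in the transgenic tables, led by Vtn, a secreted adhesion protein, with 286 and 225 footprint reads in non-TG control and 198 and 280.3 in GS/DA libraries. Of the same list 5 of 9 had rows in the KO table, led in RNA-Seq by Cspg4, a proteoglycan of pericytes and oligodendrocyte precursors, with 82.5 and 22.6 footprint reads in WT and 60.9 and 16.8 in KO. The mural list summed to 361 and 250.5 in WT and 285 and 227 in KO footprints, higher in the deeper library as the globins were, and its part in the globin values was not tested. Striatal neurons were represented by 10 of 11 markers. Ppp1r1b, the dopamine-regulated phosphatase inhibitor of medium spiny neurons, had 9578 and 8502 footprint reads in WT and 10510.1 and 8435 in KO libraries. Over all markers the median footprint change of the mural list was 0.33, -0.10 and -0.18 in the GS, GS/DA and KO comparisons and that of the striatal list -0.07, -0.21 and 0.11, beside the medians of all transcripts given above. Neither list had a gene past a log2 change of 1 in footprints or RNA-Seq.

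The list genes were also set against limma, fitted to all resolved transcripts with 2 libraries a group. At an adjusted p limit of 0.05 it called 0 of 8421 transcripts (0%) in GS/DA footprints, 0 of 8481 (0%) in GS/DA RNA-Seq, 0 of 9528 (0%) in KO footprints and 0 of 9531 (0%) in KO RNA-Seq, and therefore none of the list genes that were resolved. Lrrk2 itself was resolved and not called in footprints, although the log2 change of its group means was 2.17 in GS/DA and -2.12 in KO. With 2 libraries a group, the absence of calls thus does not show that a list gene was unchanged. List genes that were not resolved, among them Penk in both assays, Rgs9 in footprints and Ppp1r1b in RNA-Seq of the GS/DA table, were not tested. At an unadjusted p under 0.05 the counts were 156, 0, 15 and 7. In GS/DA footprints the count at adjusted p under 0.05, 0 with all libraries, depended on single libraries, with 32 called without the deeper and 12 without the shallower control library, and 2 without the deeper and 25 without the shallower transgenic library.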

How the data were processed

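The deposited signal values are group means of CDS reads that the authors counted and normalized with DESeq 1.20, after mapping with TopHat2 2.0.11 and Bowtie2 2.2.2 to mm9 with at most 1 mismatch, each table on its own. The tables also hold TE, TE differences and z-scores of the authors' own comparisons, which were not used. Means were resolved into whole reads of 2 libraries from recurring steps between values. Size factors recomputed from these reads as medians of ratios matched the steps within 0.0173% to 0.584% in the 16 libraries where both groups were resolved, and the GS libraries had no such check. TE was log2 of footprint over RNA-Seq means. limma 3.58.1 ran on log2 of normalized reads plus 10, two-sided, with Benjamini-Hochberg adjustment. It was tested on simulated data with less spread between libraries than these data, which does not show how it performs at their spread. Named genes were the globins, the most abundant gene of each list by control RNA-Seq mean, list genes with a log2 change of at least 1 in footprints or RNA-Seq, and transcripts among the 5 nearest by distance and the 5 nearest by r. The lists were red cell genes, other globins, haem genes and markers of leukocytes, platelets, liver plasma proteins, endothelium, mural cells, choroid plexus and striatal neurons. Members and lists were chosen with earlier results of these data known. Ventral midbrain samples were not analysed here.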

Additional observations from a re-analysis of the deposited data

How the results depend on the processing

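No paired analysis was possible because the deposited columns are group means that carry no replicate numbers. The 15 footprint, 15 RNA-Seq and 15 TE alternatives of the globin sum other than leaving out a library (a pseudocount of 10, the median of the rows, the share of the table, alpha alone, beta alone) kept the sign of the change and stayed within 1 SD between libraries. Leaving out single libraries changed that sign in 12 of 40 settings. In the GS comparison the globin change ranged from -0.47 to 0.21 in footprints, -1.38 to 0.96 in RNA-Seq and -1.05 to 1.29 in TE. In the GS/DA comparison it ranged from -0.59 to -0.10, -1.16 to 0.34 and -0.66 to 0.83, and in the KO comparison from -1.34 to 0.64, -0.49 to 0.10 and -1.11 to 0.87. The shallower GS libraries (0.21 in footprints without 1 of them, -1.38 in RNA-Seq and 1.29 in TE without the other), the deeper WT footprinting library (0.64, TE 0.87) and the shallower WT RNA-Seq library (0.10) turned the sign, as did, in the GS/DA table, the shallower control (0.21) and shallower transgenic (0.34) RNA-Seq libraries and, for TE, the deeper control (0.13) and shallower transgenic (0.13) footprinting and the deeper control (0.24) and deeper transgenic (0.83) RNA-Seq libraries. The cause was not tested. limma called 2 to 32 transcripts in GS/DA footprints when single libraries were left out (32 without the deeper and 12 without the shallower control library, 2 without the deeper and 25 without the shallower transgenic library), the lone library being assumed to vary like the other group, and 0 in the other fits. Requiring means of at least 2 times the read minimum of the authors in every group, which tests fewer transcripts, left 2, 2 and 2 past the log2 limit of 1 in footprints, RNA-Seq and TE of the GS table, then 5, 2 and 2 of the GS/DA table, and 1, 1 and 1 of the KO table, and a pseudocount of 10 left 7, 10 and 7 of the last. Without the 20 most abundant transcripts in the total the globin share was 0.146% of footprints and 0.216% of RNA-Seq in the control mean of the GS table and 0.116% of KO RNA-Seq, since the total is smaller.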
